A study of Mus musculus with 8 samples.

Results

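The genes described here are 9 genes of the retinoic acid pathway, Rara, Rarb, Rarg, Cyp26a1, Cyp26b1, Crabp1, Crabp2, Stra6 and Dhrs3, taken by symbol from a table of 36808 mouse genes. They were chosen by name, to ask whether each line showed a response to the retinoic acid of a differentiation protocol. RNA-seq values of 8 libraries were used, from mouse embryonic stem cells (ESCs) at day 0 and from cells at day 5 of directed differentiation to spinal motor neurons (SMNs), in which LIF is withdrawn and retinoic acid and an agonist of Hedgehog signaling are added. The lines carry mutations of Polycomb repressive complex 2 (PRC2), which places the repressive histone mark H3K27me3. E14 is the wild-type line, on a 129/Ola background. Suz12GT, on the same background, carries a gene trap that fuses SUZ12 to β-galactosidase, and the study describes it as a hypomorph that keeps H3K27me3 at a reduced level. Suz12delta, on a C57/BL6 background, carries a truncation of SUZ12, and Eednull, on a BALB/cR1 background, carries a point mutation in Eed. The study describes near complete loss of the mark in both. CJ7 is a second wild-type ESC line, on a 129/S background. E14, Suz12delta and Eednull had an ESC library and a day 5 library, Suz12GT a day 5 library only, and CJ7 an ESC library only. All ESCs were grown on irradiated mouse embryonic fibroblasts, which were removed by a brief plating step.

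Retinoic acid is made from vitamin A, and it acts by binding retinoic acid receptors, which sit on DNA as partners of the RXR receptors and switch target genes on when the ligand is present. Cells limit the signal through genes that the signal itself induces, among them enzymes that break retinoic acid down and enzymes that return its precursor to retinol. In the neural tube retinoic acid gives cells a hindbrain or spinal cord position, and motor neuron protocols use it for that purpose.

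Each condition had 1 library, so no difference given here has a replicate check or a test. Values are FPKM (fragments mapped to a gene, scaled to its transcript length and to all mapped fragments of the library), so levels of different genes can be compared, and the depth in reads is unknown. Ratios are log2 of (FPKM + 0.1), which understates changes of genes with low values, and a gene is called higher or lower where its ratio was 2-fold or more. Folds are ratios of FPKM without the 0.1. In bulk RNA, fewer cells of a type and less RNA per cell cannot be told apart. All day 5 cells received retinoic acid, so the response to it and the other changes over 5 days of differentiation cannot be told apart.

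Across the whole table, FPKM summed to between 389165 and 797748 per library, and the 10 highest genes held between 7.69% and 35.2% of that sum. The median log2 ratio of all genes lay more than 0.1 from 0 in several comparisons. It was -0.20 from day 0 to day 5 in E14 and 0.43 in Suz12delta, 0.13 for Suz12GT and 0.26 for Suz12delta over E14 at day 5, and -0.28 for Suz12delta and -0.12 for CJ7 over E14 in ESCs. Suz12 was at 41.3 FPKM in E14 ESCs and 6.21 in Suz12delta ESCs, but 16.2 in E14 and 11.6 in Suz12delta at day 5. Eed was at 32.7 FPKM in E14 ESCs and 42.4 in Eednull ESCs. A gene trap, a truncation or a point mutation need not lower the RNA of its gene, so these levels do not check the labels. The 8 ESC markers summed to between 491 and 1139 FPKM in ESCs and between 1.23 and 17.4 at day 5. The 11 motor neuron lineage markers summed to 255 FPKM in E14 and 378 in Suz12GT at day 5, but 23.0 in Suz12delta and 20.8 in Eednull, and all 10 that could be compared were at least 2-fold below E14 in both. Tubb3 was listed at 0 in all 8 libraries. Olig2 was at 0.107 and 0.0455 FPKM and Chat at 0.0127 and 0.0583 in Suz12delta and Eednull at day 5. Other markers were nonetheless at least 2-fold above the ESC level of the same line, namely Pax6, Nkx6-1, Isl1, Lhx3 and Mnx1 in Suz12delta and Nkx6-1, Isl1 and Lhx3 in Eednull, with Isl1 at 5.32 and 4.43 FPKM against 18.1 in E14. Both libraries are labelled SMN and are called day 5 cells here, since these markers were partly present and below E14. The CJ7 label names a library it was made with, by a code that the table header appears to give to Eednull ESCs, so these libraries were taken as 1 set. On that reading, comparisons of Eednull ESCs or CJ7 with any library but each other cross that set, CJ7 over E14 among them. Strain cannot be told apart from genotype for Suz12delta and Eednull.

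Promoter sequences were read because the classical retinoic acid response element is a direct repeat. Each RefSeq promoter window, from 250 bases before to 50 bases after a transcript start, was searched on both strands for repeats of the receptor half-site, as AGGTCA or its variant AGTTCA, or as GGGTCA or its variant GGTTCA, in any pairing, with 1, 2 or 5 bases between them (DR1, DR2 and DR5). A half-site may belong to more than 1 repeat, and the 5-base spacing is the best known form. DR5 was found in 32 of 32851 windows, which is 0.0974%, DR1 in 0.222% and DR2 in 0.268%. Of the members, 8 had windows, 17 in all, and Crabp2 had none. A DR5 stood in 2 of the 17, at Rarb and Cyp26a1, and none of the 17 held a DR1 or DR2. These 2 windows are shown without their last 50 bases, as the RefSeq table for GRCm38.p6 gives them, 5′ to 3′ on the gene's strand, with the DR5 in capitals.
Rarb: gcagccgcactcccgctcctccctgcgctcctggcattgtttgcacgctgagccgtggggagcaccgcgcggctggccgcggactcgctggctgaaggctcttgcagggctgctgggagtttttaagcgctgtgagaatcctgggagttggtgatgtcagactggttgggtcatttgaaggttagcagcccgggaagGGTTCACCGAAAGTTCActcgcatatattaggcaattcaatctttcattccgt
Cyp26a1: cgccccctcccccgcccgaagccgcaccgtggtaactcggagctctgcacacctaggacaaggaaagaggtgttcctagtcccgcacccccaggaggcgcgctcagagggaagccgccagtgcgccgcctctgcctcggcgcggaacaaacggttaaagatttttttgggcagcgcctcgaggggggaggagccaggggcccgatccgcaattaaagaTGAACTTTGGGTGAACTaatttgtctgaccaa
The Rarb stretch is chr14:16575477-16575726 on the minus strand, and its repeat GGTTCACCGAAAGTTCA lay at -53 to -37 from the start. The Cyp26a1 stretch is chr19:37697558-37697807 on the plus strand, and its repeat, at -32 to -16, reads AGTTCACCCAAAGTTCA on the opposite strand. On NCBI build 37, the build of the FPKM table, each stretch matched 1 place, chr14:17407991-17408240 and chr19:37772048-37772297. In the GENCODE vM1 annotation of that build the Rarb stretch ended 4 bases from a transcript start and lay in an intron of 2 of the 3 Rarb transcripts, so the gene-level FPKM joins RNA from this start and from the longer transcripts. The Cyp26a1 stretch ended at the start of its 1 transcript. A match of letters says nothing of binding, and receptor binding was not measured.

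By day 5 most of the 9 genes stood 2-fold or more from their ESC level in every line, and 6 of them separated all day 5 libraries from all ESC libraries. Rarb, Cyp26a1, Cyp26b1, Stra6 and Dhrs3 had all 4 day 5 values above all 4 ESC values, an order held by 12.4% of all genes, and Rarg had all 4 below, an order held by 6.65%. In E14, 7 members were at least 2-fold higher at day 5 than at day 0 (18.3% of all genes were) and 1 was lower (25.8% were). In Suz12delta 6 were higher (26.9%) and 2 lower (12.6%), and in Eednull 5 were higher (18.4%) and 1 lower (24.8%). Suz12GT had no ESC library here, so its day 5 cells were set against E14 ESCs, which gave 7 higher (23.7%) and 1 lower (22.9%). The median log2 ratio of the 9 was 3.58 in E14, 4.34 in Suz12delta, 1.83 in Eednull and 3.65 for Suz12GT over E14 ESCs, where the medians of all genes were -0.20, 0.43, -0.08 and -0.05. The E14 and Suz12GT ratios share their E14 ESC library.

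**Figure D1:**
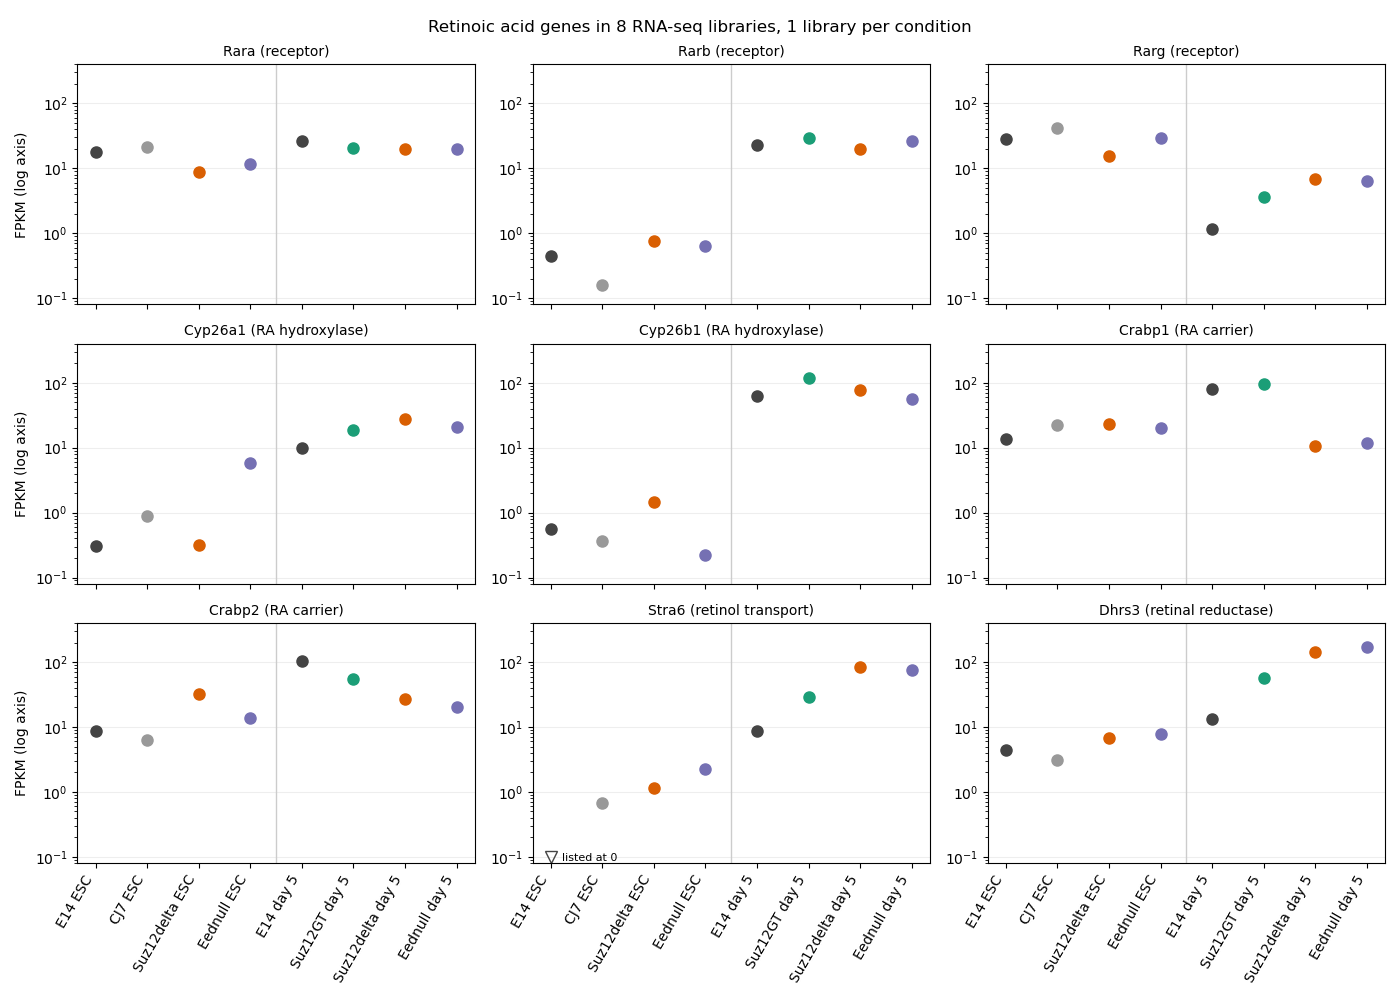
FPKM (log axis) of each of the 9 retinoic acid genes in the 8 libraries, 1 point per library, ESCs left and day 5 right of the grey line. Rarb, both Cyp26 genes, Stra6 and Dhrs3 sit higher in all 4 day 5 libraries than in any ESC library and Rarg lower, while Crabp1 and Crabp2 at day 5 sit higher in E14 and Suz12GT than in Suz12delta and Eednull. The triangle marks a value listed at 0.

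The receptors showed an exchange of Rarg for Rarb. Rarb, the receptor gene best known to be induced by its own ligand (chr14:17263356-17651381, minus strand, NCBI build 37), was at 0.445 FPKM in E14 ESCs, 0.160 in CJ7 ESCs, 0.758 in Suz12delta ESCs and 0.632 in Eednull ESCs. By day 5 it was at 22.7 FPKM in E14, 29.6 in Suz12GT, 19.5 in Suz12delta and 26.2 in Eednull. Every day 5 library was thus far above every ESC library, and the 4 day 5 values lay close together. The log2 ratio of day 5 to day 0 was 5.38 in E14, 4.52 in Suz12delta and 5.17 in Eednull, and the day 5 ratios to E14 were 0.38 in Suz12GT, -0.21 in Suz12delta and 0.21 in Eednull, all within 2-fold.

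Rarg, the main receptor of undifferentiated ESCs in this table (chr15:102065369-102087948, minus strand), was at 28.1 FPKM in E14 ESCs, 41.4 in CJ7, 15.6 in Suz12delta and 29.1 in Eednull. Its day 5 level was 1.18 FPKM in E14, 3.61 in Suz12GT, 6.92 in Suz12delta and 6.37 in Eednull. It was lower in all day 5 libraries, but least so in Suz12delta. The log2 ratio of day 5 to day 0 was -4.46 in E14, -2.17 in Eednull and -1.16 in Suz12delta, and the day 5 level stood 3.07-fold above E14 in Suz12GT, 5.88-fold in Suz12delta and 5.41-fold in Eednull.

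Rara, the receptor found most widely across tissues (chr11:98789132-98836256, plus strand), was at 17.7 FPKM in E14 ESCs, 21.1 in CJ7, 8.66 in Suz12delta and 11.8 in Eednull, and at 26.1, 20.5, 20.2 and 19.8 FPKM in E14, Suz12GT, Suz12delta and Eednull at day 5. Its log2 ratio of day 5 to day 0 was 0.55 in E14 and 0.74 in Eednull. The ratio of 1.21 in Suz12delta passed 2-fold as deposited, but was 0.78 relative to the median of all genes. The 3 receptors together came to between 25.0 and 62.7 FPKM in ESCs and between 46.6 and 53.7 at day 5, so their total at day 5 was similar in the 4 lines while its makeup was not. Rarg made up 60.7% of the receptor FPKM in E14 ESCs and 2.36% at day 5, and Rarb 0.963% and 45.4%. At day 5 Rarg made up 6.73% in Suz12GT, 14.9% in Suz12delta and 12.2% in Eednull.

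Cyp26b1 and Cyp26a1 encode hydroxylases that clear retinoic acid, and both are induced by it in many cells. Cyp26b1 (chr6:84521938-84543740, minus strand) was at 0.564 FPKM in E14 ESCs, 0.362 in CJ7, 1.48 in Suz12delta and 0.226 in Eednull, and at 61.8 FPKM in E14, 117 in Suz12GT, 76.3 in Suz12delta and 56.2 in Eednull at day 5. It had the highest log2 ratio of the members with a fold in E14, 6.54, and in Eednull, 7.43, and it reached 5.60 in Suz12delta. At day 5 the ratios to E14 were 0.92, 0.30 and -0.14 in Suz12GT, Suz12delta and Eednull, none past 2-fold.

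Cyp26a1 (chr19:37772298-37776018, plus strand) was at 0.305 FPKM in E14 ESCs, 0.873 in CJ7, 0.315 in Suz12delta and 5.78 in Eednull. Eednull ESCs thus stood apart before any retinoic acid was added, 18.9-fold above E14, with a log2 ratio of 3.86 to E14 and of 2.60 to CJ7, the library taken to be of the same set. At day 5 it was at 9.84 FPKM in E14, 18.8 in Suz12GT, 27.7 in Suz12delta and 20.8 in Eednull, with E14 the lowest. The log2 ratio of day 5 to day 0 was 4.62 in E14, 6.07 in Suz12delta and 1.83 in Eednull. The ratios to E14 at day 5 were 0.93 in Suz12GT, 1.48 in Suz12delta and 1.07 in Eednull, the last 0.99 relative to the median of all genes and so no longer past 2-fold. Cyp26b1 held 86.3% and 86.2% of the FPKM of both genes in E14 and Suz12GT at day 5, and 73.3% and 73.0% in Suz12delta and Eednull.

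The retinoic acid carriers Crabp1 and Crabp2 were the members whose direction of change over time differed between the lines. Crabp1, a cytoplasmic binding protein of the developing hindbrain and spinal cord (chr9:54612555-54620917, plus strand), was at 13.4 FPKM in E14 ESCs, 22.6 in CJ7, 23.5 in Suz12delta and 20.4 in Eednull. Day 5 levels were 81.0 FPKM in E14 and 94.4 in Suz12GT, but 10.6 in Suz12delta and 11.8 in Eednull. The last 2 values lay below those of all 4 ESC libraries. The log2 ratio of day 5 to day 0 was 2.58 in E14, -1.14 in Suz12delta and -0.78 in Eednull, and at day 5 Crabp1 stood 7.63-fold lower in Suz12delta and 6.85-fold lower in Eednull than in E14.

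Crabp2, which carries retinoic acid to its receptors in the nucleus (chr3:87752588-87757298, plus strand), was at 8.64 FPKM in E14 ESCs, 6.26 in CJ7, 32.3 in Suz12delta and 13.9 in Eednull, and at 104 FPKM in E14, 54.4 in Suz12GT, 27.4 in Suz12delta and 20.1 in Eednull at day 5. The level at day 5 was highest in E14, and Suz12GT lay between E14 and the other lines. The log2 ratio of day 5 to day 0 was 3.58 in E14, -0.24 in Suz12delta and 0.53 in Eednull. At day 5 the log2 ratios to E14 were -0.94 in Suz12GT, -1.93 in Suz12delta and -2.37 in Eednull. The Suz12GT ratio was -1.07 relative to the median of all genes, which passed 2-fold. Together the carriers came to 185, 149, 38.0 and 32.0 FPKM in E14, Suz12GT, Suz12delta and Eednull at day 5, beside 22.1 in E14 ESCs.

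**Figure D2:**
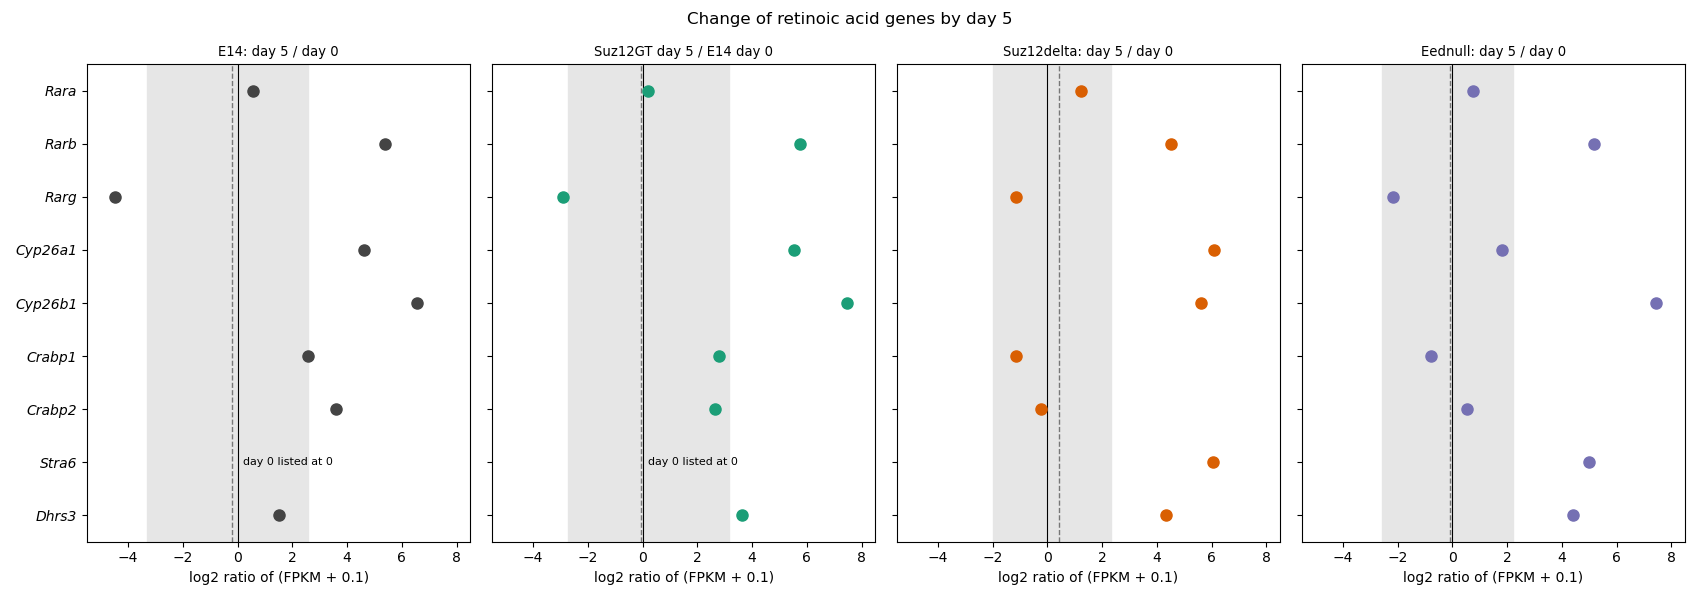
Log2 ratio of (FPKM + 0.1) of day 5 to day 0 for the 9 genes in E14, Suz12delta and Eednull, and of Suz12GT day 5 to E14 ESCs, 1 library per condition, with the 5th to 95th percentile of all genes as a grey band and their median as a dashed line. Rarb and Cyp26b1 lie right of the band in all panels, and Crabp1 and Crabp2 lie right of 0 in E14 and Suz12GT but at -1.14 and -0.24 in Suz12delta. No ratio is drawn where E14 ESCs were listed at 0.

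Stra6 and Dhrs3, which handle the precursors of retinoic acid, were the members that most exceeded E14 in the mutant lines at day 5. Stra6, the cell-surface receptor through which retinol is taken up (chr9:57911595-58001803, plus strand), was listed at 0 in E14 ESCs, and was at 0.675 FPKM in CJ7, 1.17 in Suz12delta and 2.26 in Eednull ESCs. At day 5 it was at 8.62 FPKM in E14, 29.1 in Suz12GT, 83.7 in Suz12delta and 75.5 in Eednull. The day 5 values ran from E14 through Suz12GT to the 2 lines described as nearly without H3K27me3, whose values lay close together. They stood 3.37-fold above E14 in Suz12GT, 9.71-fold in Suz12delta and 8.76-fold in Eednull. The log2 ratio of day 5 to day 0 was 6.05 in Suz12delta and 5.00 in Eednull, and no fold is given for E14. Stra6 overlaps Ccdc33, which lies on the opposite strand and was at 0.891 FPKM or less in all 8 libraries. Whether the counting used strand is not given in the sources used here.

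Dhrs3, a reductase that turns retinaldehyde back into retinol (chr4:144482730-144518112, plus strand), was at 4.49 FPKM in E14 ESCs, 3.15 in CJ7, 6.87 in Suz12delta and 7.94 in Eednull. The day 5 values were 13.1 FPKM in E14, 57.4 in Suz12GT, 141 in Suz12delta and 170 in Eednull. The lines fell in the same order as for Stra6 except that Eednull lay above Suz12delta. The level at day 5 was 4.38-fold, 10.8-fold and 13.0-fold above E14 in Suz12GT, Suz12delta and Eednull, and the log2 ratio of day 5 to day 0 was 1.52 in E14, 4.34 in Suz12delta and 4.40 in Eednull.

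Set against E14 at day 5, 3 members were at least 2-fold higher in Suz12GT (16.8% of all genes were) and 0 lower (4.4%), with a median log2 ratio of 0.92 where that of all genes was 0.13. After centring on the median of all genes 3 were higher and 1, Crabp2, was lower. In Suz12delta 4 were higher (26.6%) and 2 lower (9.52%), and in Eednull 4 were higher (21.6%) and 2 lower (11.3%). The members called were the same in both, Rarg, Cyp26a1, Stra6 and Dhrs3 as higher and Crabp1 and Crabp2 as lower. The median of the 9 was 0.30 in Suz12delta and 0.21 in Eednull, close to the medians of all genes, 0.26 and 0.08. All 3 comparisons share the E14 day 5 library. The 4 higher genes each ran from E14 through Suz12GT to both other lines, an order held by 22.1% of all genes, and Rara and Crabp2 ran the opposite way, as did 8.77% of all genes.

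**Figure D3:**
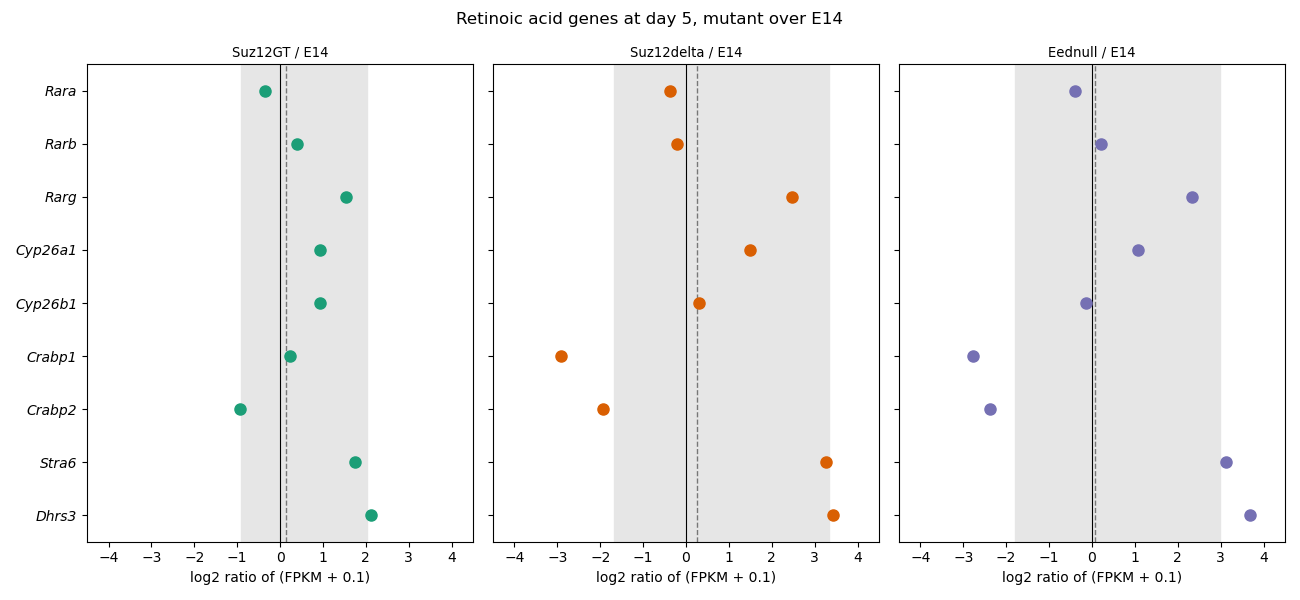
Log2 ratio of (FPKM + 0.1) to E14 at day 5 for the 9 genes in Suz12GT, Suz12delta and Eednull, 1 library per condition, with the 5th to 95th percentile of all genes as a grey band and their median as a dashed line. Dhrs3 lies right of the band in all 3 panels. Crabp2 lies left of it in all 3, only just in Suz12GT, and Crabp1 in Suz12delta and Eednull.

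Most markers of other cells also stood above E14 in the mutant lines at day 5, though not always in the order of Stra6 and Dhrs3. The 8 ESC markers summed to 1.23 FPKM in E14, 11.5 in Suz12GT, 17.4 in Suz12delta and 7.48 in Eednull at day 5. Of those that could be compared, 7 of 7 were at least 2-fold higher than in E14 in Suz12GT, 8 of 8 in Suz12delta and 4 of 6 in Eednull. The 9 endoderm markers summed to 3.85 FPKM in E14, 32.2 in Suz12GT, 53.1 in Suz12delta and 43.0 in Eednull at day 5, and 9 of 9 were at least 2-fold higher than in E14 in each mutant line. Gata4 and Afp were listed at 0 in E14. The 12 fibroblast markers summed to 14.2, 34.4, 161 and 87.6 FPKM in the same order, with 11, 12 and 11 of the 12 at least 2-fold higher, and Lum and Prrx1 were listed at 0 in E14. The part of such cells in the levels of Stra6, Dhrs3, Rarg and Cyp26a1, and the part of the lower motor neuron lineage markers in those of Crabp1 and Crabp2, was not tested.

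In ESCs fewer members than at day 5 passed 2-fold from E14 in Suz12delta and Eednull. Their medians, however, lay further above those of all genes than at day 5. In Suz12delta 3 were at least 2-fold higher, Cyp26b1, Crabp2 and Stra6 (18% of all genes were), and 1 was lower, Rara (22.8%), with a median log2 ratio of 0.65 beside -0.28 for all genes. After centring on that median 4 were higher and 0 lower. In Eednull 2 were higher, Cyp26a1 and Stra6 (22.4%), and 1 lower, Cyp26b1 (11.9%), with a median of 0.60 beside 0.04, and with 75th percentile scaling 0 were lower. CJ7, itself wild-type, had 2 higher, Cyp26a1 and Stra6 (15.7%), and 1 lower, Rarb (14.7%), with a median of 0.25 beside -0.12, and after centring 0 were lower. The calls in Eednull and CJ7 depended on the setting. With a pseudocount of 1, CJ7 had 0 members higher and 0 lower than E14, and Eednull 2 higher and 0 lower. Against CJ7 in place of E14, Eednull had 5 higher and 0 lower. Among the higher calls, Crabp2 in Suz12delta and Cyp26a1 in Eednull had the highest FPKM, and both were more than 2-fold above CJ7 as well as E14. Crabp2 in Suz12delta ESCs was at a log2 ratio of 1.89 to E14 and 2.35 to CJ7. The 12 fibroblast markers summed to 932 FPKM in Suz12delta, 407 in Eednull and 164 in each wild-type ESC library, and the 9 endoderm markers to 33.3 FPKM in Eednull, 8.49 in Suz12delta, 1.39 in E14 and 2.54 in CJ7. Their part in the Crabp2 and Cyp26a1 levels was not tested.

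The rest of the pathway was read from 3 lists, chosen by what the genes do. Of the genes for retinoid supply and synthesis, 14 were in the table. From day 0 to day 5 in E14, 3 of 9 that could be compared were at least 2-fold higher and 0 lower (18.3% and 25.8% of all genes were). In Suz12delta 9 of 12 were higher and 1 lower (26.9% and 12.6%), and in Eednull 7 of 12 and 3 (18.4% and 24.8%). At day 5, 6 of 11 were higher than E14 and 0 lower in Suz12GT (16.8% and 4.4%). The counts were 7 and 1 of 12 in Suz12delta (26.6% and 9.52%), and 6 and 1 of 10 in Eednull (21.6% and 11.3%). The medians were 1.13, 1.58 and 1.76 on the log2 scale, where those of all genes were 0.13, 0.26 and 0.08. Aldh1a2, the main enzyme that makes retinoic acid in the embryo, was at 0.983, 1.03, 1.27 and 1.26 FPKM in E14, CJ7, Suz12delta and Eednull ESCs. At day 5 it was at 0.935 FPKM in E14, 8.29 in Suz12GT, 29.1 in Suz12delta and 34.3 in Eednull. E14 cells thus stayed near the ESC level, and the mutant lines followed the order seen for Stra6 and Dhrs3, with log2 ratios to E14 of 3.02, 4.82 and 5.05. Rbp4, the carrier of retinol in blood that binds STRA6, was at 0.538 FPKM in E14 and at 12.0, 10.7 and 8.06 in Suz12GT, Suz12delta and Eednull. Aldh1a1, another enzyme that makes retinoic acid, was at 0.128, 0.464, 4.54 and 3.45 FPKM.

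Of the 15 partners and turnover genes, 7 were at least 2-fold higher and 1 lower in E14 from day 0 to day 5 (18.3% and 25.8% of all genes were). In Suz12delta 8 were higher and 0 lower (26.9% and 12.6%), and in Eednull 7 and 2 (18.4% and 24.8%). At day 5 against E14, 1 was higher and 0 lower in Suz12GT (16.8% and 4.4%). The counts were 1 and 4 in Suz12delta (26.6% and 9.52%), and 0 and 4 in Eednull (21.6% and 11.3%). Median log2 ratios were 0.04, 0.15 and 0.08, where those of all genes were 0.13, 0.26 and 0.08. Nr2f1, an orphan nuclear receptor induced by retinoic acid, was at 0.650, 0.662, 2.12 and 1.48 FPKM in E14, CJ7, Suz12delta and Eednull ESCs and at 163, 137, 50.7 and 52.0 FPKM in E14, Suz12GT, Suz12delta and Eednull at day 5. It had a log2 ratio of day 5 to day 0 of 7.77 in E14, 4.52 in Suz12delta and 5.04 in Eednull, and was lower at day 5 in those mutant lines than in E14. Fabp5, a binding protein that can pass retinoic acid to another receptor, PPARD, was at 154, 112, 44.0 and 43.2 FPKM at day 5. Rxrg, an RXR partner found in motor neurons, was at 3.44 FPKM in E14, 11.0 in Suz12GT, 0.404 in Suz12delta and 0.141 in Eednull.

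Textbook targets of retinoic acid numbered 16, most of them Hox genes. In E14 12 were at least 2-fold higher and 2 lower at day 5, in Suz12delta 14 and 1, in Eednull 13 and 2, and for Suz12GT over E14 ESCs 14 and 1. Their median log2 ratio was 4.46, 3.74, 1.91 and 4.07 in that order. Against E14 at day 5, 3 were higher and 0 lower in Suz12GT, 4 and 7 of 16 in Suz12delta, and 2 and 9 of 15 in Eednull, with median log2 ratios of 0.01, -0.90 and -1.90. The shares of all genes called and the medians of all genes in these comparisons are those given for the members. Hoxb5 had the lowest ratio in both, at 51.8 FPKM in E14 and 37.8 in Suz12GT, but 6.41 in Suz12delta and 3.97 in Eednull. Meis1, a Hox cofactor, was at 65.2, 86.3, 48.0 and 48.6 FPKM in E14, Suz12GT, Suz12delta and Eednull. Stra8, a retinoic acid target of the germ line, ran in the opposite direction, at 2.17 FPKM in E14, 18.9 in Suz12GT, 56.8 in Suz12delta and 20.4 in Eednull. In Eednull ESCs 11 of the 16 were at least 2-fold above E14 and 0 below (22.4% and 11.9% of all genes were). In CJ7 ESCs 2 were above and 2 below (15.7% and 14.7%). Meis1 was at 9.60 FPKM in Eednull ESCs, 1.91 in CJ7 and 0.723 in E14, and Cdx1 at 3.24, 1.95 and 0.862. Hox genes and Cdx1 are described as PRC2 targets in ESCs as well, and the cause of these ESC levels was not tested.

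**Figure D4:**
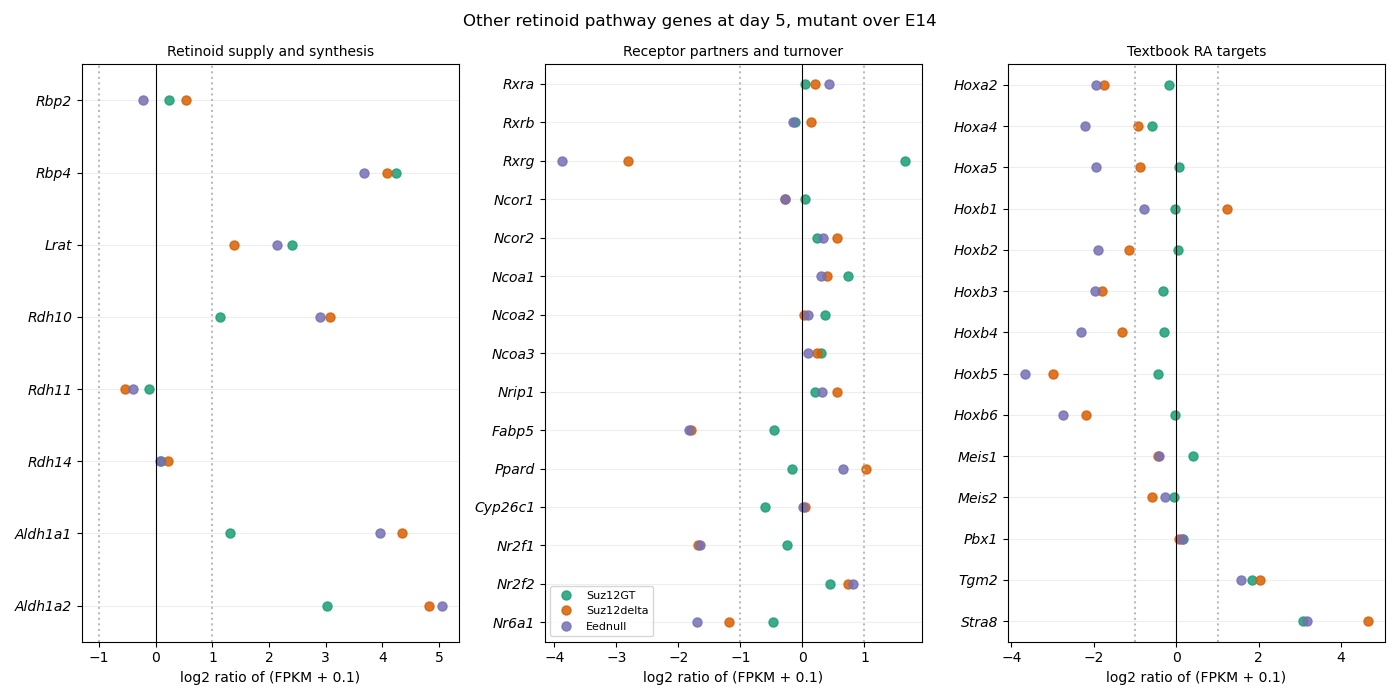
Log2 ratio of (FPKM + 0.1) to E14 at day 5 for other retinoid genes in Suz12GT (green), Suz12delta (orange) and Eednull (purple), 1 library per condition, for most genes with a ratio in all 3, with dotted lines at 2-fold. Aldh1a2, Aldh1a1 and Rbp4 lie right of the 2-fold line in every line, and most Hox genes lie left of it in Eednull while Suz12GT stays within 2-fold for them.

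For each member, the genes most like it over the 8 libraries were those with the smallest root mean square (RMS) difference between log2 profiles centred on their own mean, among the 18538 genes that reached 1 FPKM somewhere. The likeness is a description of 8 libraries that share lines and days. Rarg was nearest to Rpp25, with an RMS difference of 0.25, Gm12588 at 0.28 and Irak3 at 0.33. Dhrs3 was nearest to Dio3os at 0.35, Slc16a12 at 0.41 and Zbtb7c at 0.43, each lowest in E14 among the day 5 libraries and highest in Suz12delta or Eednull. Crabp1 was nearest to Ngfr at 0.28, Crb1 at 0.35 and Atl1 at 0.36, and Crabp2 to Cyp46a1 at 0.34, Suox at 0.37 and Cdh2 at 0.41. Ngfr, a neurotrophin receptor of motor neurons, was at 15.3, 24.3, 2.10 and 1.83 FPKM in E14, Suz12GT, Suz12delta and Eednull at day 5. Rarb and Cyp26b1 shared a near gene, 0610040B09Rik, at 0.61 and 0.66, and Nr2f1 was the next but one for Cyp26b1 at 0.85. Cyp26a1 was nearest to Foxa2 at 0.64, a gene of the endoderm list, which was at 2.61 FPKM in Eednull ESCs and 0.147 in E14 ESCs. Foxa2 was also at 2.96 FPKM in E14 at day 5, where the endoderm list summed to 3.85. Stra6 had no close neighbour, with AL672259.1 at 1.203, Dlk1 at 1.24 and Foxa2 at 1.25. Rara, which changed least, had the closest neighbours of the 9, with Pds5b, Gemin8 and Gm9855 at 0.12 each.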

How the data were processed

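RNA-seq libraries of 8 conditions, 1 each, were used. The deposited values are FPKM, which the authors obtained by aligning reads to mm9 with TopHat 1.3.2 and Bowtie 0.12.7 and estimating levels with Cufflinks 1.2.1 and Cuffdiff (NCBI build 37 annotation), per the submitters' processing notes and the study's methods. Libraries were assigned to conditions from the column names and sample labels. Log2 ratios added 0.1 to each FPKM and kept genes that reached 0.1 in either library, without rescaling, and a call was 2-fold or more. Because each condition had 1 library, no p-value was computed. Low FPKM values did not fall on steps of single reads (at most 2.28% of low genes shared the commonest ratio between libraries), so depth and counting intervals are unknown. Beside all 9 members, the genes named from each other list were at most the 3 largest rises and falls per comparison past 2-fold at 1 FPKM or more, with Hoxb1, Cdx1, Meis1 and Meis2, and each member's 3 nearest profiles. Some genes of these lists enter the counts but are not reported here. Markers listed at 0 or near it, and genes whose lines moved in opposite directions, were named after their values were seen. The members and lists were chosen with earlier results of these data known. Hoxa3 and Dab2 have more than 1 protein-coding entry and were left out, and Bco1 and Slc18a3 were not analysed here. Promoter windows came from RefSeq (GRCm38.p6) and coordinates from GENCODE vM1, which held 36104 of 36808 identifiers. Alternatives were adding 1 or 0.01, dropping the minimum or raising it to 1 FPKM, scaling to a common 75th percentile, centring on the median of all genes, CJ7 as the wild-type ESC and a 4-fold call. Only genes above 0 in both libraries were used in a further alternative, chosen after seeing the data. The ratio, call and neighbour steps were tested on simulated data. Python 3.11.15, NumPy 2.4.6, pandas 2.3.3 and Matplotlib 3.10.9 were used.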

Additional observations from a re-analysis of the deposited data

Results flagged for a closer look

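The members, the supply and synthesis genes and the partners and turnover genes were searched for opposite changes. For several, the log2 ratio of day 5 to day 0 differed in sign between E14 and a mutant line that had both libraries. With 1 library per condition, none of these differences was tested. The search kept genes above 0 in the libraries compared that reached 1 FPKM in each line. Among these, Crabp1 in E14 and Suz12delta was the only pair of ratios past 2-fold in both directions. Rxrg fell below that minimum in Eednull, at 0.576 FPKM at day 0 and 0.141 at day 5. It was at least 2-fold lower at day 5 there but higher in E14, at 0.404 and 3.44 FPKM. Textbook targets and markers were not searched. Of these, Stra8 was at least 2-fold lower at day 5 in E14 but higher in Suz12delta and Eednull, and Olig2 went the other way. Further markers passed 2-fold in opposite directions in E14 and a mutant line. Among them were Nefl and Nkx6-2, higher in E14 but lower in Eednull, and Gata4, lower in E14 but higher in Suz12delta. Crabp1 had a log2 ratio of 2.58 in E14, -1.14 in Suz12delta and -0.78 in Eednull, the last within 2-fold. Crabp2 had 3.58 in E14 and -0.24 in Suz12delta, the latter within 2-fold. Rdh10, the enzyme that oxidizes retinol on the way to retinoic acid, had -0.93 in E14, 3.08 in Suz12delta and 2.56 in Eednull, with 2.21, 19.5 and 17.2 FPKM at day 5. Among the receptor partners, Rxrb had -0.12 in E14 and 1.06 in Suz12delta, the coactivator genes Ncoa1 -0.75 and 1.303, and Ncoa3 -1.23 and 0.0039, a value at 0 to the precision of the data. Nr6a1, a nuclear receptor gene, had 0.14 in E14 and -1.04 in Eednull. The Suz12delta ratios stand against a median of all genes of 0.43, and the Eednull ratios cross the set to which the Eednull ESC library was taken to belong.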

How the results depend on the processing

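No paired analysis was possible because each condition had 1 library. Of 620 alternative values for 85 member ratios, 595 kept their side of 2-fold, 14 no longer passed it and 11 newly passed it. No ratio past 2-fold in the main setting changed sign. Signs of ratios within 2-fold were not followed, and some changed. Cyp26a1 in Suz12delta ESCs, at 0.315 FPKM, was slightly above E14 (0.305) but below CJ7 (0.873). Of 168 alternative values for 20 counts of members, 141 stayed within 1.5 times. The counts from day 0 to day 5 and at day 5 moved little. With a 4-fold call, members lower from day 0 to day 5 in Suz12delta went from 2 to 0, those higher in Suz12GT than E14 at day 5 from 3 to 1, and those lower in Suz12delta at day 5 from 2 to 1, by construction. With 75th percentile scaling or median centring, 1 member was lower in Suz12GT at day 5 in place of 0. ESC counts depended more on the setting. For Suz12delta ESCs, the 1 lower member became 0 with a pseudocount of 1, 75th percentile scaling, median centring or a 4-fold call, and 3 against CJ7, while the 3 higher became 1 with a 4-fold call. For Eednull ESCs, the 1 lower became 0 with a pseudocount of 1, a minimum of 1 FPKM, 75th percentile scaling, CJ7 or a 4-fold call, and the 2 higher became 5 against CJ7 and 1 over genes above 0 in both libraries, since Stra6 then drops out. For CJ7 over E14, the 2 higher became 0 with a pseudocount of 1 or a minimum of 1 FPKM and 1 with a 4-fold call or over genes above 0 in both libraries, and the 1 lower became 0 with a pseudocount of 1, a minimum of 1 FPKM, 75th percentile scaling, median centring or a 4-fold call. The restriction to genes above 0 was chosen after seeing the data. Where the setting does not itself remove a gene or raise the fold asked for, the cause was not tested. The unknown depth limits values under 1 FPKM most, which in ESCs include Rarb in every line, Cyp26b1 outside Suz12delta, Cyp26a1 outside Eednull, and Stra6 in E14 and CJ7.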
